A study of Mus musculus with 1 sample.

Results

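ETS transcription factors were examined in cultured mouse lung cancer cells, in every probe set of the array that named exactly 1 of 10 chosen ETS genes. Of these 10 genes, 9 were measured, by 24 of the 34945 one-gene probe sets and as 9 of the 18193 measured genes. Etv1 had no probe set of its own. The cells were 1 sample, labelled KR Primary, a line derived from a KR tumor of a mouse of strain B6/J. KR is not spelled out in the labels, and the series title names kras tumors. The cells were grown in serum-containing medium without a stated treatment and collected near confluence, and whether the line is 1 clone is not given. A single Affymetrix array was hybridized, so there was no second condition, no replicate error and no test between groups.

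ETS factors share a DNA-binding domain, the ETS domain, which recognises a GGAA core on either DNA strand, and subfamilies differ in flanking bases and in partner proteins. Many of them are endpoints of RAS and ERK signalling: ERK phosphorylates Ets1, Ets2 and the ternary complex factors, and it raises the amount of the PEA3 group, Etv1, Etv4 and Etv5. In the lung, Etv4 and Etv5 act downstream of fibroblast growth factor during branching, and Etv5 maintains alveolar type 2 cells.

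Signals are the deposited intensities in arbitrary fluorescence units on a linear scale. They were judged against 126 probe sets of olfactory, vomeronasal and taste receptor and keratin-associated protein genes, called the background set. The 95th percentile of that set, 16.8, is the background line, and its highest probe set, at 60.6, is the upper background limit. This limit rests on 1 probe set, since the next highest read 42.2 and 21.0. Probe sets differ in brightness, so the order of signals between genes is not the order of their RNA amounts. A gene's level below is that of its highest probe set.

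Most of the ETS genes gave signal above background in these cells. Of the 9 measured, 8 were above the background line, against 63.3% of all measured genes, and 6 were above the upper limit, against 47.5%. Both shares are low comparisons, since 8 of the 9 genes have several probe sets and 48.4% of genes with 1 passed the line. With 2, 3 or 4 probe sets, 72.4%, 82.3% and 87.5% of genes passed it. Spi1 was the gene not above the line, and Etv4 and Elk1 fell in between the 2 thresholds. The median level was 148 over the 9 ETS genes and 48.3 over all measured genes. By single probe sets, 21 of 24 passed the line, against 60.9% of all one-gene probe sets, and 12 passed the upper limit, against 41.1%. Ets1 was the only measured ETS gene of the 9 with every probe set above the upper limit.

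**Figure D1:**
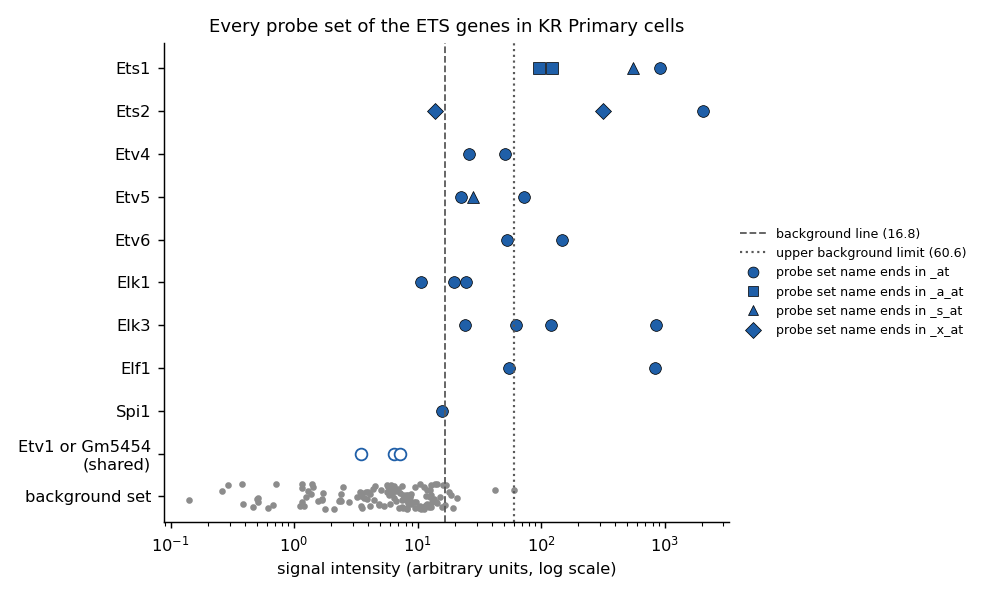
Signal of every probe set of the 9 measured ETS genes, of the probe sets shared by Etv1 and Gm5454 (open circles) and of the 126 background probe sets (grey), in arbitrary units on a log axis, with 1 point for each probe set of the single array. All 4 probe sets of Ets1 lie above the upper background limit, both of Etv4 lie between that limit and the background line, and the only one of Spi1 lies below the line.

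Ets1 and Ets2, the founding pair of the family and activators that ERK phosphorylates beside a helical docking domain, gave the 2 highest levels. The 4 probe sets of Ets1 read 911, 555, 123 and 96.9. They fall into a bright and a dim pair, and each pair was built from a single sequence record, so the members of a pair do not give independent readings. Within the pairs the signals differed by 0.71 and 0.34 on the log2 scale. Ets2 read 2059 on its brightest probe set, which is brighter than 97.8% of the one-gene probe sets. The other Ets2 probe sets read 316 and 13.8, the last under the background line. Both carry names ending in _x_at, which marks probes that can also match other transcripts.

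Etv4 and Etv5 of the PEA3 group are ETS genes often named as transcriptional readouts of ERK signalling. All 5 of their probe sets passed the background line, against 60.9% of all one-gene probe sets. Of the 5, 1 was above the upper limit, against 41.1% of all one-gene probe sets. Etv4 read 51.1 and 25.9 on its probe sets, both past the line and neither past the upper limit. Among the 126 background probe sets, 1 was brighter than the higher Etv4 signal and 2 were brighter than the lower. Etv5 read 72.6, 28.1 and 22.5. Only the first of these was above the upper limit, and the other 2 came from 1 sequence record and differed by 0.32 on the log2 scale. At the level of the gene, Etv5 stood at the 54.5th and Etv4 at the 50.6th percentile of all measured genes.

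Etv1 completes the group, but each of its 3 probe sets is annotated to Gm5454 as well, so their signal belongs to no single gene. They read 7.17, 6.43 and 3.51, all below the background line and within the middle of the background set, of which 57, 62 and 88 probe sets were brighter.

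Elk1 and Elk3 are ternary complex factors, which bind DNA together with serum response factor (SRF) and are switched by ERK phosphorylation, with Elk3 repressing until it is phosphorylated. Elk3 read 856, 120, 62.5 and 24.0, with all 4 signals over the line and 3 of them over the upper limit. The signals of 856 and 62.5 came from 1 sequence record and differed by 3.78 on the log2 scale. For comparison, the median difference was 1.23 over the 5219 pairs of probe sets that share a gene and a record, and 1.90 over the 25153 pairs of a gene built from different records. Elk1 read 24.7, 19.7 and 10.6, so that its brightest probe set passed the line and none passed the upper limit. A further ternary complex factor, Elk4, was on the list of other ETS genes and read 488, 84.1, 15.6 and 12.2.

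Etv6, a repressor that polymerises through its helical domain and is known from leukemia translocations, read 148 and 52.5, the first above the upper limit and the second between the limits. Elf1, a broadly expressed activator studied mainly in lymphoid cells, read 842 and 55.3. The Elf1 signals fell on either side of the upper limit, and 1 of the 126 background probe sets was brighter than the lower.

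Spi1 encodes PU.1, the factor that directs myeloid and B cell development. Its only probe set read 15.9, just below the background line, and 9 of the 126 background probe sets were brighter. Of genes with a single probe set, 48.4% passed the line. The line at the 90th percentile (14.1), or one drawn from olfactory and vomeronasal receptors alone (15.2), would put Spi1 above it. In a bulk sample, fewer cells of a type and less RNA per cell cannot be told apart. Markers of myeloid cells passed the line in 3 of 13 genes, against 63.3% of all measured genes. These were Cd14 at 255, Cd68 at 69.8 and Csf1r at 47.1, whereas Ptprc, the pan-leukocyte surface protein, read at most 11.5. Lyz2 and Itgam gave 11.3 and 4.87. Of 9 measured lymphoid markers only Cd8a passed the line, at 22.0 on 1 of its 5 probe sets, an _x_at one. None passed the upper limit.

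The probe sets of an ETS gene disagreed by about as much as those of other genes on the array. Over the 8 ETS genes with several probe sets, the median SD between probe sets was 1.33 on the log2 scale, beside 1.45 over all 9010 such genes. Ets2 had the widest spread of the 8, with an SD of 3.65 and a 149-fold ratio of its highest to its lowest signal. That SD exceeded 93.7% of genes with 3 probe sets. For Elf1 the SD was 2.78, above 84.3% of genes with 2 probe sets, and for Elk3 it was 2.18, above 66.3% of genes with 4. Elk1 and Etv4 had the smallest SDs, 0.63 and 0.69, on signals that were all below the upper limit. When the 9 genes were ordered by level, the ranges over probe sets overlapped in 7 of the 8 neighbouring pairs, the exception being Etv4 and Elk1. Neighbours in the order Ets2, Ets1, Elk3, Elf1, Etv6, Etv5, Etv4, Elk1 and Spi1 were therefore mostly not separated beyond the spread between probe sets. Neighbours by level are the pairs most apt to overlap, and no such count was made for other genes. Some genes further apart did separate, as the lowest Ets1 signal, 96.9, was above all signals of Etv5, Etv4, Elk1 and Spi1. By contrast, the lowest Ets2 signal, 13.8, was below the highest signal of each other gene.

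**Figure D2:**
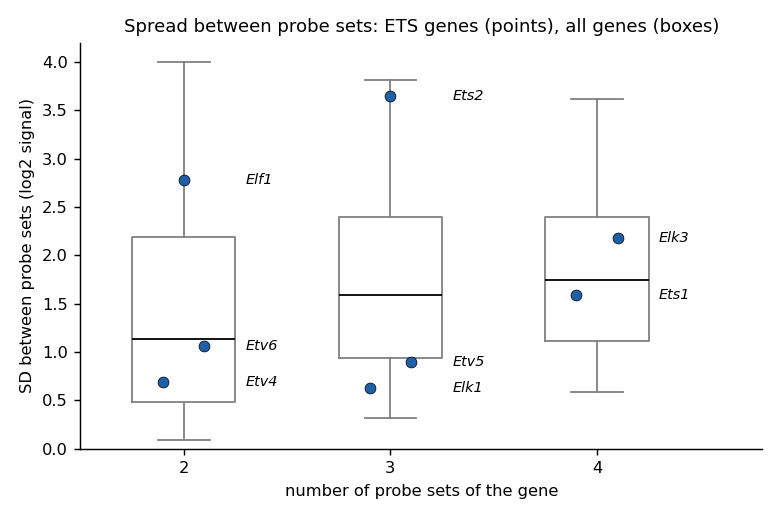
SD of the log2 signal between the probe sets of each ETS gene with 2, 3 or 4 probe sets (points), over boxes of all genes with that number of probe sets (median, quartiles, and whiskers at the 5th and 95th percentiles). Ets2 at 3.65 lies near the upper whisker of genes with 3 probe sets, and Elk1 at 0.63 lies below their lower quartile.

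Genes with more probe sets pass a line on the highest one more easily, so the counts were also read by number. Among genes with 4 probe sets, as for Ets1 and Elk3, 87.5% were over the line and 71.8% over the upper limit. With 3, as for Ets2, Etv5 and Elk1, the shares were 82.3% and 67.2%, and with 2, as for Etv4, Etv6 and Elf1, they were 72.4% and 54.8%. A stricter rule that takes the lowest probe set of a gene left 6 of 9 ETS genes above the line, against 47% of all genes, namely Ets1, Elk3, Elf1, Etv6, Etv4 and Etv5. At the upper limit it left 1, Ets1, against 27.3% of all genes, and 14.3% of genes with 4 probe sets passed on their lowest.

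The rest of the family ranged from genes with clear signal to genes at background. Of 15 other ETS genes measured, 8 were over the line and 7 of these over the upper limit, and their median level was 18.4. Over all measured genes these shares were 63.3% and 47.5% and the median was 48.3. Gabpa, a broadly expressed activator of respiratory and ribosomal genes, read 805 and 192. Etv3 and Erf, both repressors, reached 386 and 184, with 3 of 4 Etv3 probe sets and 1 of 2 Erf probe sets above the line. Elf2, a relative of Elf1, reached 336, with 2 of its 3 probe sets above the line. Elf4 reached 18.4, between the 2 thresholds, and Etv2 8.82, below both. The epithelial members Elf3 and Ehf gave 297 and 143, with 3 of 4 Ehf probe sets above the line, while Elf5 gave 5.92 and Spdef 7.86. Erg and Fli1, which act in endothelial and blood cells, gave 7.64 and 7.48 and did not pass the line, nor did the relatives of Spi1, Spib at 14.5 and Spic at 4.99. Endothelial markers passed the line in 3 of 9 genes, with Egfl7 at 111, Kdr at 30.3 and Cdh5 at 17.4. Cdh5 did so on 1 of its 2 probe sets, and Pecam1 gave 14.3. Over the whole family, 16 of 24 measured genes were over the line, 13 of them also over the upper limit, which is near the shares of all measured genes (63.3% and 47.5%).

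All 8 epithelial markers read above the upper limit, from 1150 to 7600, whereas 47.5% of all measured genes did. For fibroblasts, 1 of the 9 listed genes was over the line, while the share of all measured genes was 63.3%. Of 10 lung epithelial markers, 3 passed the line, beside the same 63.3%. These were Sftpd at 397, Hopx at 132 and Sftpc at 21.1, the last on 1 of its 2 probe sets. Nkx2-1, the factor that defines lung epithelium, gave 7.66 and was not above background, so this marker of the labelled tissue was not detected here.

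Genes that control or assist ETS proteins were mostly above background. Of 28 measured partners and regulators, 26 were over the line and 25 of these over the upper limit, with a median level of 285, against 63.3% and 47.5% of all measured genes and their median of 48.3. Cbfb, the partner of RUNX factors that bind beside Ets1, gave 2127, and Id2, a helix-loop-helix inhibitor, 1954. Ddb1 and Cop1, parts of a ubiquitin ligase that degrades PEA3-group proteins, gave 1907 and 945, and Spop, another ligase adaptor, 830. Cic, which encodes the repressor of Etv1, Etv4 and Etv5 that ERK signalling inactivates, gave 77.2 on its only probe set. Srf itself read 142 and 94.7. The lowest were Irf8 at 18.4, Irf4 at 8.998 and Sp100 at 3.41. Irf4 and Irf8 are the blood-cell partners of PU.1.

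Genes reported elsewhere as targets of PEA3-group factors or of ERK output were over the line in 28 of 32 cases, and 25 of these exceeded the upper limit, against 63.3% and 47.5% of all measured genes. Their median was 767, and that of all measured genes 48.3. Ccnd2 and Ccnd1, the D-type cyclins, gave 5689 and 4340, Dusp6, an ERK phosphatase, 3630, Phlda1 3504 and Ier3 2823. At the other end were Mmp2 at 15.9, Mmp9 at 6.61, both matrix metalloproteinases, and the chemokine receptor gene Cxcr4 at 0.629. These genes have many other regulators, and their signals do not measure the activity of an ETS protein. Genes listed as SRF targets were over the line in 13 of 14 cases, and 11 of these exceeded the upper limit. The shares of all measured genes were the same 63.3% and 47.5%, and the median of the list was 659. The list does not set targets that need a ternary complex factor apart from other SRF targets. Its signals do not measure the activity of such a factor. The list was led by Actb at 5921, Ccn2 at 3344, Mcl1 at 2468, Vcl at 2058 and Ccn1 at 1337. The lowest of the list were the immediate-early genes Fosb at 28.3, Egr3 at 22.7 and Egr2 at 6.60. Other genes of that kind on the list gave more: Fos 919, Ier2 754, Junb 564, Egr1 337 and Nr4a1 125.

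**Figure D3:**
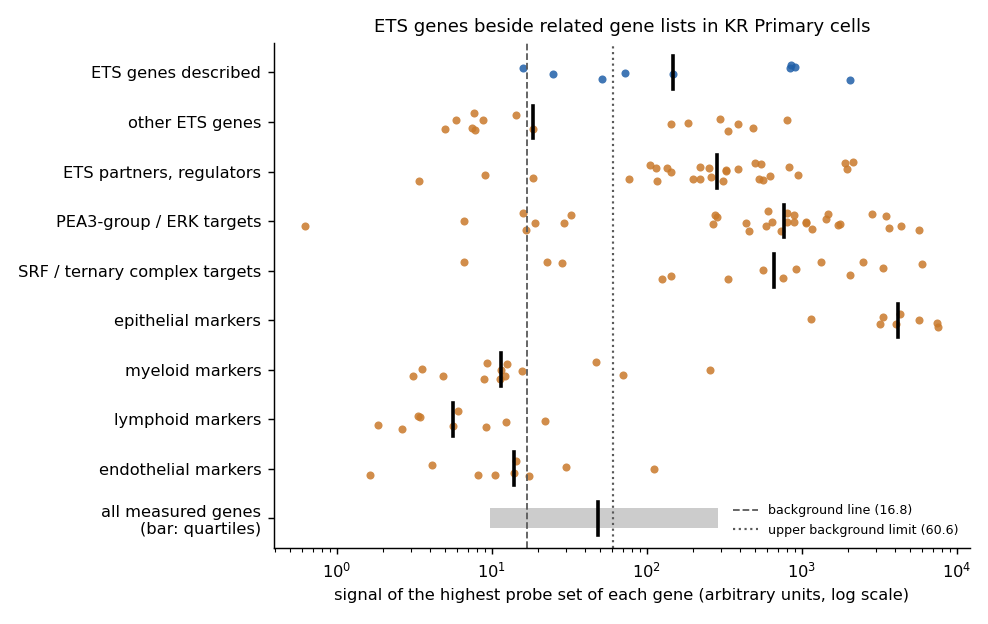
Signal of the highest probe set of each gene, in arbitrary units on a log axis, for the 9 ETS genes, 15 other ETS genes, related lists and cell type markers, with the median of each list as a black bar and the quartiles of all 18193 genes in grey. The 9 ETS genes run from 15.9 to 2059 around a median of 148, and the median of all measured genes is 48.3.

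Promoter sequences, from 250 bases before to 50 after the start, came from RefSeq (GRCm38.p6), and 7 of the 10 ETS genes matched, with 10 promoters, while Ets1, Etv4 and Spi1 were not searched here. They were searched on both strands for 3 ETS-type motifs: CCGGAAG, the longer ACCGGAAGT, which contains the first, and CAGGAAGT, which has no CpG. None of the 7 genes held any of them, and none held a CArG box, the site of SRF. Among all 32841 promoters the shares were 8.86%, 1.10%, 3.33% and 1.63%, so few matches among 10 promoters would be usual. The bare core GGAA was in 96.0% of all promoters, with a median of 3 copies. The ETS gene promoters held from 0 copies, at one Etv5 start, to 6, at the other Etv5 start and at Etv6.

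The 100 bases before the start are shown with each GGAA or its complement TTCC in capitals. Shown are Ets2, the brightest ETS gene, both starts of Etv5, and Elk1, the measured ETS gene of lowest level among those searched. The Etv5 starts differ most in copies over the whole promoter, and most of the 6 copies lie outside the bases shown. The stretches lie at chr16:95702307-95702406 (plus strand), chr16:22439571-22439670 and chr16:22438369-22438468 (minus strand) and chrX:20950609-20950708 (minus strand).
Ets2: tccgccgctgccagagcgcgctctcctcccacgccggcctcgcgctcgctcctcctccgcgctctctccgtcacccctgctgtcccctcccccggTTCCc
Etv5, first start: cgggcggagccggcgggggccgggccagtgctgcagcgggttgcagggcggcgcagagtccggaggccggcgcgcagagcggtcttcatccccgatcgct
Etv5, second start: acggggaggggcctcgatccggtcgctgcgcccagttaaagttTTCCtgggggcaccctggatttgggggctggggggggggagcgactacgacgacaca
Elk1: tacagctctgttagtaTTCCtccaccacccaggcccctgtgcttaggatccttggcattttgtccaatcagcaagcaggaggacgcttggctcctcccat

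Of the measured genes with a promoter in the table, 15.0% held CCGGAAG in at least 1 promoter, and the related lists held it in a few genes each. Matches were found in 2 of 15 other ETS genes (Elk4 and Gabpa), in 3 of 27 partners and regulators (Det1, Daxx and Srf), in 2 of 9 SRF target genes (Srf and Mcl1) and in none of 23 PEA3-group or ERK target genes. The matches of 4 of these genes are printed with the motif, or its complement CTTCCGG, in capitals. They lie at chr16:84835020-84835049 for Gabpa, chr1:132007541-132007570 for Elk4 and chr3:95658647-95658676 for Mcl1 (all plus strand), and at chr17:46556205-46556294 for Srf (minus strand). The Srf stretch is longer because it also holds 2 CArG boxes, likewise in capitals, so that letters of the ETS type and of the SRF type stand in 1 promoter.
Gabpa: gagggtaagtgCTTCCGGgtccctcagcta
Elk4: cggcccctcccCCGGAAGtgacgctcgcgc
Mcl1: gagcgctccggCCGGAAGaggcgcggagtg
Srf: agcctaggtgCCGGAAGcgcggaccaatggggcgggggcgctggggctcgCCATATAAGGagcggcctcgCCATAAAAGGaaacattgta

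Across all 14449 measured genes with a promoter in the table, genes holding CCGGAAG were above the background line more often than genes without it. Of 2165 genes with the motif, 89.0% passed the line, and of 12284 without it, 60.8% did, a difference of 28.2 percentage points. With 1 copy in a promoter 88.0% passed, and with 2 or more 93.5%. The difference had the same direction in each tercile of the genes by GC content, at 40.9, 21.7 and 14.4 points from the lowest to the highest tercile, and in each tercile by number of CpG, at 26.0, 17.1 and 11.1 points. For ACCGGAAGT the shares were 90.8% of 262 genes with it and 64.5% of those without. CAGGAAGT showed 66.0% of 586 genes with it and 64.9% of those without, a difference of 1.09 points. That pooled value was smaller than every value within terciles. These were 7.99, 2.76 and 5.74 points by GC content and 11.2, 9.65 and 1.78 points by number of CpG, from the lowest to the highest. Among genes with 1 start in the table, not divided into terciles, the difference was -1.83 points. The direction of the pooled difference thus depended on the genes taken. These are shares over genes of 1 array, which are not replicates, and a match in a promoter does not show that an ETS protein was bound there.

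**Figure D4:**
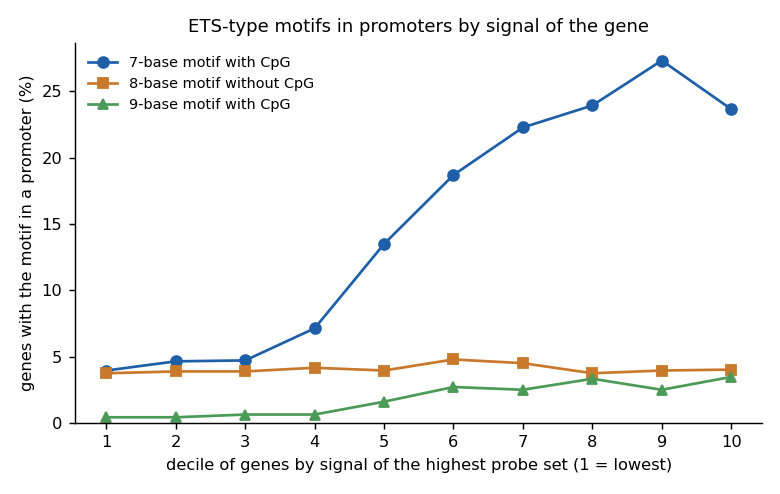
Percent of genes with each ETS-type motif in a promoter, for 14449 genes divided into deciles by the signal of their highest probe set, on a linear axis from 0. The 7-base motif CCGGAAG was in 3.94% of the lowest decile, 27.3% of the ninth and 23.7% of the highest, whereas the 8-base motif CAGGAAGT stayed between 3.74% and 4.78%. These shares were not divided by GC or CpG content.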

How the data were processed

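Per the labels' protocols, biotinylated cRNA of 1 sample was hybridized to an Affymetrix array. The deposited intensities, 1 per probe set, were made by the authors with Affymetrix Expression Console, as the submitters' processing notes state. Which algorithm it ran is not given in the sources used here, and neither is its background correction. Detection calls were not used. Of 45101 probe sets, 34945 named 1 gene in the platform annotation. Symbols of 34741 were updated by gene ID through RefSeq.

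Probe sets were called against the 95th percentile and the maximum of 126 background probe sets, and a gene took its highest probe set. The single array limits precision: no replicate error exists and nothing was tested between groups. Members, lists and motifs were chosen with earlier results of these data known. All 10 members are named, and from each list the 5 highest and 3 lowest genes, other ETS genes and markers. Other names follow their known roles and were chosen after values were seen. A planned comparison of ETS domain proteins was not made here. Alternatives changed the line, background set, probe sets and combining rule, and for promoters the GC or CpG content. Calling and motif search were tested on simulated data. Python 3.11.15, numpy 2.4.6, pandas 2.3.3 and matplotlib 3.10.9 were used.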

Additional observations from a re-analysis of the deposited data

How the results depend on the processing

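The number of ETS genes above the background line was between 6 and 9 of 9 under the alternatives run, and that above the upper limit between 5 and 8, except that taking the lowest probe set of each gene left 1. Spi1 and Elk1 changed sides of the line with its percentile, Spi1 rising above it at the 90th (14.1) and Elk1 falling below it at the 99th (36.9). Etv4 and Etv5 changed sides of the upper limit, Etv4 when it was set at the second background probe set (42.2) and Etv5 at 2 times the 99th percentile (73.8). With the upper limit taken from olfactory and vomeronasal receptors (19.2), Etv4 and Elk1 passed it and 8 of 9 genes did. The median level over the 9 genes was 91.2 with the median of each gene's probe sets and 24.0 with the lowest, beside 30.6 and 14.8 over all genes. The difference in share between genes with and without CCGGAAG, under alternatives chosen after seeing the data, was 14.4 points in the highest tercile by GC, and 17.1 and 11.1 points in the middle and highest terciles by CpG. Signals near the line carry little information on amount, and with 1 array no alternative can replace a replicate.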
